A study of Mus musculus with 10 samples.

Results

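The cytosolic ribosomal protein genes are the genes for the protein components of the ribosome that works in the cytosol. They were chosen by name, as every symbol that begins with Rpl or Rps and a digit, together with Rpsa, Rplp0, Rplp1 and Rplp2, without pseudogene names and without the S6 kinases. The rule found 91 of the 53656 genes in the tables. Of these, 77 encode ribosomal proteins of the standard ribosome, 46 in the large and 31 in the small subunit. A further 13 are paralogs or retrogene copies, and Rps19bp1 encodes a binding partner of a ribosomal protein and not a subunit.

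RNA was sequenced from CD4 T cells carrying the SMARTA transgene, a T cell receptor for the viral peptide GP61, and sorted from the tumour-draining lymph node (tdLN). TOX KO cells (n = 6 libraries) were sorted as CD4+ Ly5.1+ Ly5.2-, low for PD1, LAG3 and CD39. TOX WT cells (n = 4 libraries) were sorted as CD4+ Ly5.1+ Ly5.2+, high for the same 3 proteins. TOX is a nuclear HMG-box protein that thymocytes need to become CD4 T cells and that is high in exhausted T cells. Cells of both genotypes were transferred naive into B6 hosts that had received cytoxan (cyclophosphamide) and carried the melanoma B16-GP61, and were collected 11 days later. Genotype and sort gate cannot be told apart. The labels number the replicates but name no animal behind them, so a p-value here measures only how far these libraries differ, in part perhaps for technical reasons. Library numbers, used below, come from the library names and are not the replicate numbers. Numbers 1 to 3 are KO replicates 1 to 3 and WT replicate 1 (number 2), and numbers 4 to 8 are all the other libraries.

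The ribosome joins amino acids into protein, with the small subunit reading the mRNA and the large subunit forming the peptide bond. Its proteins are made from abundant mRNAs, most of which begin with a pyrimidine tract through which mTOR signalling sets how fast they are translated. T cells make more ribosomes when they are activated and grow, a step driven in large part by MYC and mTOR.

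In many ribosomal protein genes this tract lies at the start of transcription, so promoters of 8 members are shown with their RefSeq sequence (build GRCm38.p6), from 70 bases before to 30 bases after the start of transcription on the strand of the gene. Rplp0 had the highest level per length, Rpl15 and Rps9 were among the 3 members with the steadiest place among the others, Rpl4, Rps4x and Rps25 had some of the lowest fold changes, and Rps2 and Rpl13 varied most between libraries. Capitals mark the longest run of C and T of at least 8 bases anywhere in this window, which Rplp0, Rps4x and Rps2 do not have. In Rpl4, Rps25 and Rpl13 the marked run ends before the start of transcription. A marked run need therefore not be the tract that begins the mRNA, and shorter tracts are not marked.
Rplp0, chr5:115559397-115559496, plus strand: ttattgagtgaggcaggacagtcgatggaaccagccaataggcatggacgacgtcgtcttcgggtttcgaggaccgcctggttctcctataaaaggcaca
Rpl15, chr14:18270957-18271056, minus strand: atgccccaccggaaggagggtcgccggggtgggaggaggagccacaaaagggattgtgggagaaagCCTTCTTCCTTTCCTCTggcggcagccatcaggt
Rps9, chr7:3703971-3704070, plus strand: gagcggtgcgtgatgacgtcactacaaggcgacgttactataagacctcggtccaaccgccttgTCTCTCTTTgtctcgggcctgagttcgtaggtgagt
Rpl4, chr9:64173317-64173416, plus strand: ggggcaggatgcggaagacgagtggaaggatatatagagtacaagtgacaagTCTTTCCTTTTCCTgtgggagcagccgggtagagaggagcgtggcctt
Rps4x, chrX:102189362-102189461, minus strand: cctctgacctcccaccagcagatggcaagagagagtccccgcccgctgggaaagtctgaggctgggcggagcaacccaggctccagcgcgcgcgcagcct
Rps25, chr9:44407644-44407743, plus strand: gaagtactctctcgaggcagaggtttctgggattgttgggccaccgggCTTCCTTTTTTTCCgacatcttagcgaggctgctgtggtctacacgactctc
Rps2, chr17:24719993-24720092, plus strand: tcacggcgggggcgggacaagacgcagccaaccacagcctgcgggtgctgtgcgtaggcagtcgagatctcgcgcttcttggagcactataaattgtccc
Rpl13, chr8:123102280-123102379, plus strand: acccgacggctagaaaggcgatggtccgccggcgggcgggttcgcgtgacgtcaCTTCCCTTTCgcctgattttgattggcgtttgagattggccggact

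RefSeq promoters matched 57 of the 77 subunit genes. A run of at least 8 C or T on the strand of the gene lay in this window in 40 of the 57, or 70.2%, against 39.8% of all 27025 genes with a promoter and 39.1% of 69 genes for mitochondrial ribosomal proteins. The letters CCGGAAG, searched on both strands of the full 300 bases, are the core of sites that ETS family factors bind. They stood in 24 of the 57, or 42.1%, against 9.93% of all genes and 37.7% of the mitochondrial ribosomal protein genes. Read on the other strand, CCGGAAG can overlap a pyrimidine run. The letters AAGATGGC, found in sites for YY1, were in 5 of the 57, or 8.77%, against 3.19% of all genes and 17.4% of the mitochondrial ribosomal protein genes. KO minus WT log2 fold changes had a median of -0.46 over the 40 genes with a run and of -0.50 over the 17 without, with no test made. A match is a string of letters and not a measured site.

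The libraries held 36028980 to 55784453 counts in KO and 31939816 to 45481478 in WT. Tox, the targeted gene, was at 15.3 to 68.0 CPM (counts scaled to a common library total) in the KO libraries and 170 to 357 CPM in the WT libraries, a log2 fold change of -2.93 (SE 0.48, adjusted p in edgeR = 0.0102). The T cell markers were present in every library: their 16 genes summed to 28152 to 40326 CPM in KO and 13386 to 29073 CPM in WT. Of the 16, 1 (Cd5, a receptor that tunes antigen receptor signals) was higher in KO at an adjusted p under 0.05 in edgeR. Among all tested genes 0.429% were higher and 2.70% lower. The 18 B and plasma cell markers summed to 1065 to 2074 CPM in KO and 8658 to 68877 CPM in WT. Of the 18, 12 were lower in KO. Xbp1 was the only one of them with a log2 fold change above 0, at 0.69 (adjusted p in edgeR = 0.681). Cd79a, part of the B cell receptor, was above 0 in every library, and Ms4a1, which codes for CD20, was at 0 in 1 KO library. Immunoglobulin genes took 0.0902% to 0.193% of counts in KO and 0.815% to 16.7% in WT. Myeloid markers summed to 153 to 406 CPM in KO and 1783 to 7879 CPM in WT, with 5 of the 17 tested lower in KO. In bulk RNA, fewer cells of a type and less RNA per cell cannot be told apart. The part of these other cells in the results on ribosomal proteins was not tested beyond the alternatives given below.

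The share of counts on the 77 subunit genes was small and overlapped between the genotypes. Their share was 1.02%, 1.62%, 2.03%, 1.18%, 1.43% and 1.96% in KO replicates 1 to 6, against 2.46%, 2.00%, 1.30% and 2.11% in WT replicates 1 to 4. The ranges overlap: WT replicate 3 lies below 4 of the 6 KO libraries, and KO replicate 3 lies above WT replicates 2 and 3. The mean was 1.54% ± 0.408 in KO (SD, n = 6) and 1.97% ± 0.487 in WT (SD, n = 4), a difference of -0.43 percentage points, which is about as large as the SD between libraries of 0.44. The difference was -0.26 points without WT replicate 1, -0.65 points without WT replicate 3 and -0.28 points among library numbers 4 to 8. With immunoglobulin genes left out of the totals it was -0.60 points. These shares rest on 418764 to 1130955 counts in KO and 463698 to 1120933 counts in WT, so counting error is small beside the spread between libraries.

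The balance of large to small subunit genes overlapped between the genotypes as well. Summed counts of the large over the small subunit gave ratios of 1.54, 1.26, 1.28, 1.31, 1.30 and 1.23 in KO replicates 1 to 6, against 1.19, 1.26, 1.35 and 1.21 in WT replicates 1 to 4. KO replicate 1 was the highest, and the other KO libraries lay within the WT range. The ratio was 1.32 ± 0.111 in KO (SD, n = 6) and 1.25 ± 0.0734 in WT (SD, n = 4), a difference of 0.07 against an SD between libraries of 0.0985. Without KO replicate 1 the difference was 0.03. Part of this ratio is 1 gene, since Rplp0 made up 12.1% of the subunit counts in KO replicate 1, against 7.25% to 8.62% in the other KO libraries and 8.18% to 9.16% in WT.

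**Figure D1:**
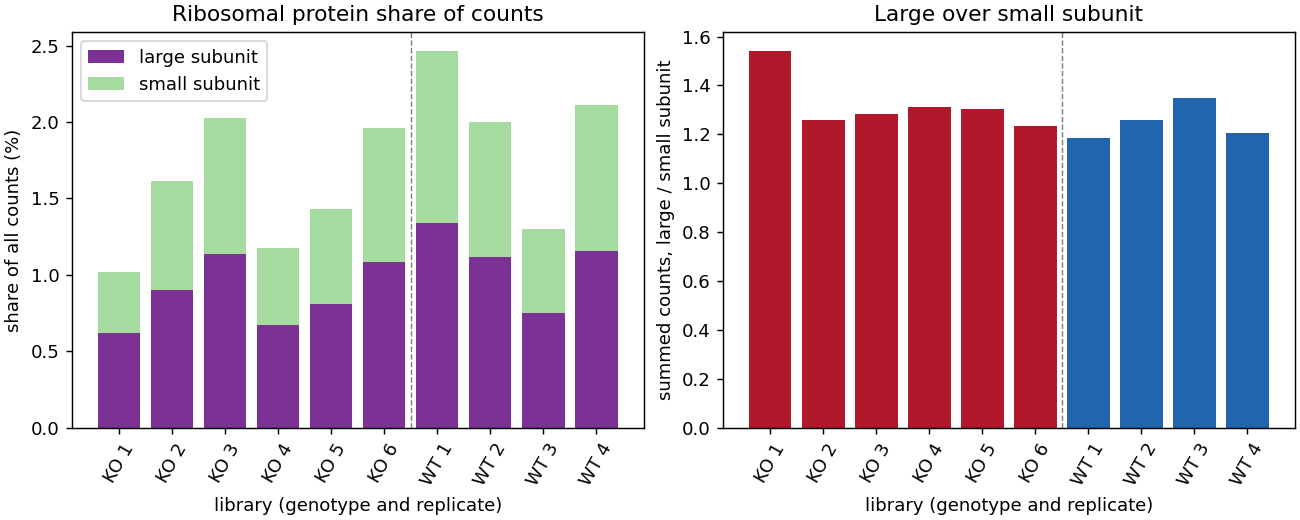
Left, share of all counts that fell on the 77 ribosomal protein genes in each library, in percent, split into large and small subunit. Right, summed counts of the large over the small subunit. KO libraries stand left of the dashed line and WT libraries right of it; the KO shares run from 1.02% to 2.03% and the WT shares from 1.30% to 2.46%.

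Gene by gene, no ribosomal protein gene passed the test. All 77 subunit genes passed the filter on low counts, and 0 were higher and 0 lower in KO at an adjusted p under 0.05 (edgeR quasi-likelihood test, Benjamini-Hochberg over 14214 genes), where 0.429% of all tested genes were higher and 2.70% lower. At an unadjusted p under 0.05, 9 of the 77 were lower and 0 higher, or 11.7%, against 18.0% of all tested genes in either direction, 10.8% lower and 7.15% higher. DESeq2 called 0 of the 77, with 17 at an unadjusted p under 0.05 where 24.2% of all tested genes were, while it called 4.31% of all tested genes higher and 7.03% lower. In limma-voom 0 of the 77 were called, with 9 at an unadjusted p under 0.05 where 22.4% of all tested genes were, while 1.44% of all tested genes were higher and 4.78% lower. In 0 of the 77 did the KO and WT libraries stay clear of each other, where 2.58% of all tested genes were higher and 6.30% lower without overlap.

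The sign was shared more widely than the calls. The log2 fold change, KO minus WT, was below 0 in 70 of the 77 genes, where 54.3% of all tested genes were below 0. Its median was -0.46 over the members and -0.12 over all tested genes, and the members' values ran from -0.95 to 0.74. It was -0.46 for the 46 large subunit genes, of which 40 were below 0, and -0.46 for the 31 small subunit genes, of which 30 were below 0. The members' levels move together from library to library, so these 77 signs are not 77 independent observations, and no test was made of the median. The size depends on single libraries: the median was -0.26 without WT replicate 1, -0.27 without KO replicate 1, -0.29 without KO replicate 4 and -0.29 without WT replicate 4. Among library numbers 1 to 3 (3 KO, 1 WT) it was -0.80, and among numbers 4 to 8 (3 KO, 3 WT) -0.29, with 74 and 62 of the 77 genes below 0. Over all tested genes the median was 0.37 among numbers 1 to 3, with 42.9% below 0, and -0.09 among numbers 4 to 8, with 53.7% below 0. The members' median was thus -1.18 relative to that of all genes in the first set and -0.20 in the second. A low median in the first set was not particular to the members. The 77 genes for mitochondrial ribosomal proteins had a median of -0.68 there, with 69 below 0. In the second set their median was 0.08, with 36 below 0.

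**Figure D2:**
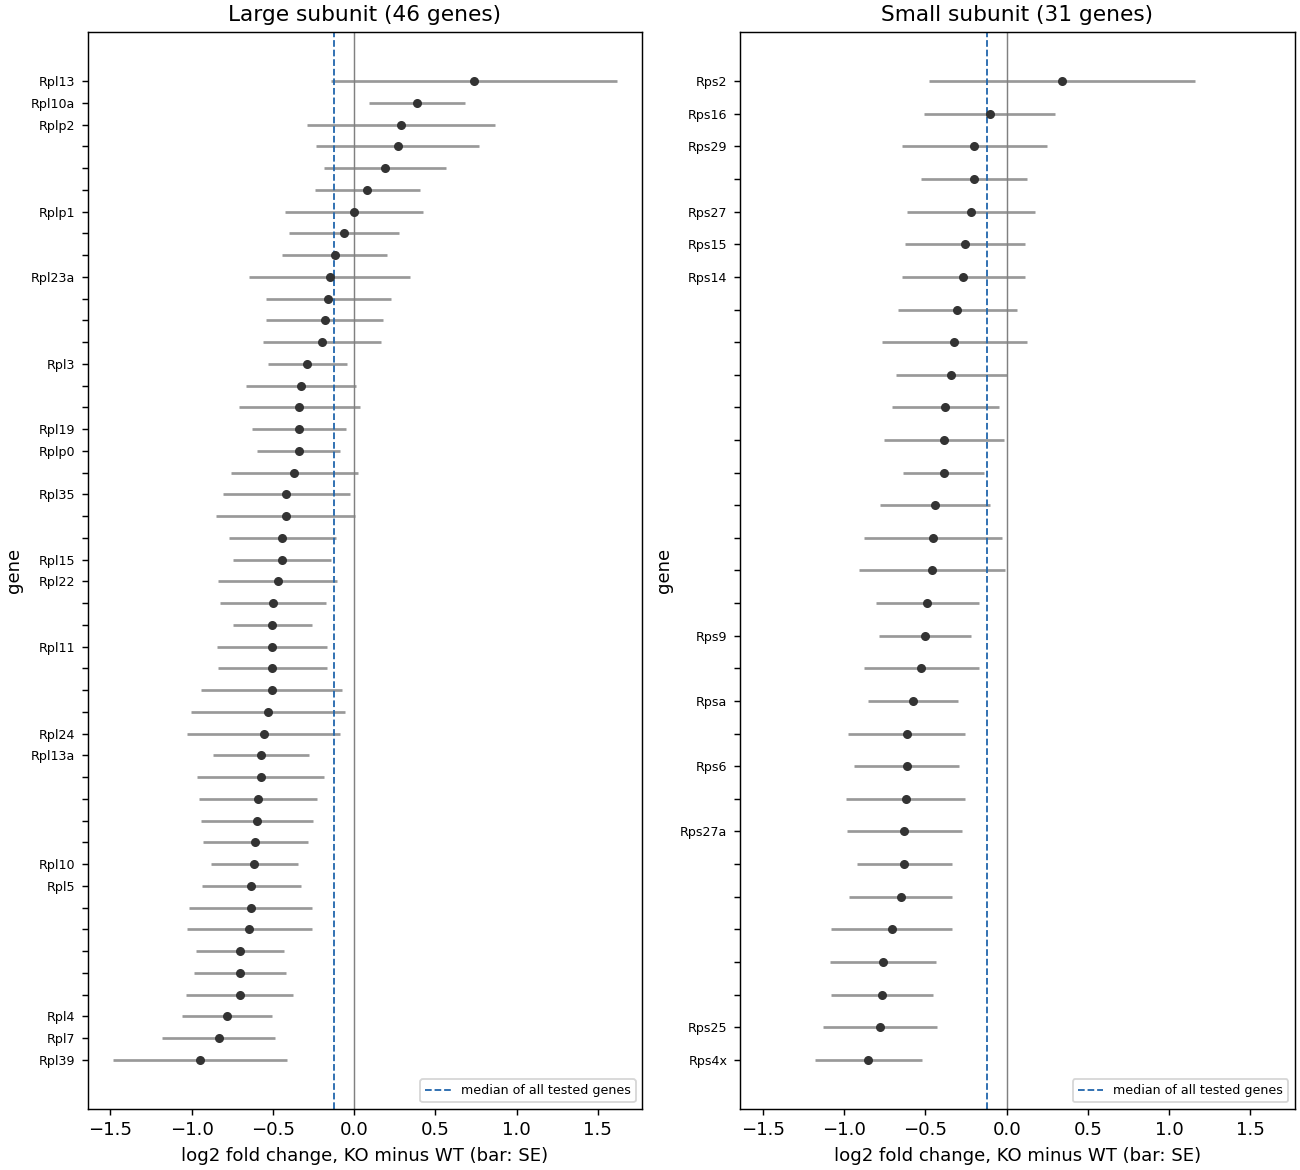
Log2 fold change of each ribosomal protein gene, KO minus WT, with its standard error as the bar, large subunit left and small subunit right; genes named in the text are labelled. The dashed line is the median of all tested genes, -0.12; 70 of the 77 points lie below 0 and none passed the adjusted threshold.

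The choice of scaling changed the calls. When every library was scaled to the summed counts of 7 T cell receptor complex genes, 48 of the 77 were lower in KO and 0 higher, with a median of -1.26. The same scaling moved the median of all tested genes to -1.01 and called 14.9% of all tested genes lower and 0.113% higher, so the members' median was -0.24 relative to that of all genes, against -0.34 in TMM scaling. Of these 7 genes Trac, the constant part of the receptor alpha chain, had the highest log2 fold change in TMM scaling, 0.89. It stood at 4525 to 10820 CPM in KO and 2422 to 6855 CPM in WT. The others had 0.85 (Trbc2), 0.72 (Cd3e), 0.71 (Cd247), 0.68 (Cd3g), 0.49 (Cd3d) and -0.17 (Trbc1). None of the 7 passed in TMM scaling (adjusted p in edgeR = 0.193 to 0.832). Scaled to the summed ribosomal protein genes, 0 of the 77 were called, against 0.288% of all tested genes higher and 1.73% lower, and the medians were -0.11 for the members and 0.22 for all tested genes.

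Levels were compared between genes per kb of counted exon length. That length covers all annotated exons: 2697 bases for Rpl11, against 833 in its principal transcript, and 499 in both for Rplp1. The order of genes thus depends in part on the annotation. In the large subunit the highest mean over the 10 libraries was that of Rplp0, at 884 CPM per kb, followed by Rplp1 at 624 CPM per kb. Small subunit genes with high levels included Rps14 at 545.5 and Rps15 at 295 CPM per kb. The median of the 77 genes was 64.5 CPM per kb, and the lowest were Rpl24 at 4.596 and Rpl23a at 4.99 CPM per kb. Not all reads of these genes were counted: 36 of the 77 share exon bases with another annotated gene, where reads that fit both genes were left out, and 14 share more than 10%, among them Rpl35 with 66.2%, Rpl23a with 62.3% and Rpl24 with 47.0%. Reads that match several places were not counted either, and 255 rows carry pseudogene names of ribosomal proteins. These rows held 0.715% to 0.919% as many counts as the members in KO and 0.768% to 0.947% in WT.

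The stalk proteins come first among the large subunit genes, since they reach out from the ribosome to catch the translation factors. Rplp0 (chr5:115559467-115563727), the base of the stalk, had 1441, 1428, 1694, 894, 1144 and 1347 CPM in KO replicates 1 to 6, against 2236, 1669, 1028 and 1778 CPM in WT replicates 1 to 4. The groups overlap widely, with WT replicate 3 lower than 5 of the 6 KO libraries. Its log2 fold change was -0.34 (SE 0.26, adjusted p in edgeR = 0.520). Rplp1, which binds to that base together with Rplp2, had a log2 fold change of 0.00 (SE 0.43, adjusted p in edgeR = 0.9985). Rplp2 had 138, 197, 217, 85.1, 123 and 199 CPM in KO, against 340, 35.8, 87.9 and 59.9 CPM in WT. WT replicate 1 was the highest of the 10 libraries for Rplp2 and WT replicate 2 the lowest, and its log2 fold change was 0.29 (SE 0.58). Without WT replicate 1 it was 1.39 (adjusted p in edgeR = 0.053), among library numbers 4 to 8 it was 1.21 and among numbers 1 to 3 it was -0.84, so the sign depends on which libraries enter.

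Rpl4 was the large subunit gene nearest to a call. Rpl4 (chr9:64173375-64178666), whose protein lines the tunnel through which the new chain leaves, had 425, 444, 612, 505, 511 and 597 CPM in KO replicates 1 to 6. It had 470.4, 1233, 721 and 1126 CPM in WT replicates 1 to 4. WT replicates 2, 3 and 4 lay above every KO library and WT replicate 1 among them. The log2 fold change was -0.78 (SE 0.28, adjusted p in edgeR = 0.176). Without WT replicate 1 it was -0.99 and passed (adjusted p in edgeR = 0.0208), in a fit that called 2.92% of all tested genes higher and 7.90% lower. Among library numbers 1 to 3, where WT replicate 1 is the sole WT library, it was 0.11. Rpl7 had 98.0 to 414 CPM in KO, with a median of 264.5, against 452, 541, 326 and 567.6 CPM in WT. KO replicate 6 lies above WT replicate 3, so the groups overlap, and the log2 fold change was -0.83 (SE 0.35, adjusted p in edgeR = 0.245).

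Rpl39, a small protein at the exit of the tunnel, had the lowest log2 fold change of all subunit genes, -0.95 (SE 0.54, adjusted p in edgeR = 0.385). Its levels were 2.07, 7.56, 13.1, 7.97, 12.2 and 15.3 CPM in KO replicates 1 to 6, against 24.96, 18.4, 10.1 and 21.6 CPM in WT replicates 1 to 4. KO replicate 1 was far below the rest, with 73 counts. The proteins around the site of peptide bond formation gave smaller values: Rpl3 had a log2 fold change of -0.29 (SE 0.25) and Rpl10, which joins the subunit last before it can translate, one of -0.61 (SE 0.27). Rpl5 and Rpl11 form a particle with 5S rRNA that binds MDM2 and so stabilises p53 when ribosome assembly is disturbed. Their log2 fold changes were -0.63 (SE 0.30) and -0.50 (SE 0.34), and none of these 4 genes passed (adjusted p in edgeR = 0.263 to 0.577).

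Among large subunit genes with roles outside the ribosome, Rpl22, which mouse alpha-beta T cells need in development, had 31.1, 30.4, 61.5, 32.0, 33.9 and 70.9 CPM in KO and 51.6, 70.9, 38.0 and 79.5 CPM in WT. These ranges overlap, and the log2 fold change was -0.47 (SE 0.37). Rpl13a, which in human monocytic cells leaves the ribosome after interferon-gamma to silence inflammatory mRNAs, had a log2 fold change of -0.57 (SE 0.30, adjusted p in edgeR = 0.341). Its KO libraries held 28.2 to 40.1 CPM and its WT libraries 74.6, 51.6, 33.0 and 48.8 CPM. Other annotated genes share 35.4% of its exon bases.

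The highest log2 fold changes of the large subunit were those of Rpl13 with 0.74 (SE 0.88, adjusted p in edgeR = 0.700), Rpl10a with 0.39 (SE 0.30) and Rplp2. Rpl13 (chr8:123102350-123105244) had 606, 722, 1040, 333, 202 and 506 CPM in KO replicates 1 to 6, against 981, 23.3, 305 and 52.9 CPM in WT replicates 1 to 4. WT replicates 2 and 4 lay far below every KO library, WT replicate 3 among the low KO libraries and WT replicate 1 near the highest. The span from the lowest to the highest library was 44.7-fold, against a median of 3.35-fold over the 77 genes.

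The small subunit gene with the lowest log2 fold change was Rps4x, which lies on the X chromosome (chrX:102184941-102189394, minus strand). It had 60.1, 143, 161, 134, 161 and 203 CPM in KO replicates 1 to 6, against 293, 263, 164 and 317 CPM in WT replicates 1 to 4. WT replicates 1, 2 and 4 lay above every KO library and WT replicate 3 within the KO range. The log2 fold change was -0.85 (SE 0.33, adjusted p in edgeR = 0.208). Rps25, a protein used by some viral mRNAs to start translation without a cap, followed with -0.78 (SE 0.35, adjusted p in edgeR = 0.273).

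Other small subunit genes with a known role of their own gave values of the same sign. Rpsa, also known as a laminin receptor, had 349 to 578 CPM in KO and 943, 711, 379.9 and 694 CPM in WT, a log2 fold change of -0.57 (SE 0.28, adjusted p in edgeR = 0.309). Rps6, the protein that S6 kinases phosphorylate downstream of mTOR, had 70.9 to 210.5 CPM in KO and 210.1, 241, 140.4 and 290.0 CPM in WT. Its KO range reaches the WT values, and its log2 fold change was -0.62 (SE 0.32, adjusted p in edgeR = 0.345). Rps27a, which is made as a fusion with ubiquitin, had a log2 fold change of -0.63 (SE 0.35). Fau, which is named outside the rule and codes for a ubiquitin-like protein fused to a protein of the small subunit, had a log2 fold change of -0.37 (SE 0.38).

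Rps2, a protein at the entry of the mRNA channel, had the highest log2 fold change of the small subunit, 0.34 (SE 0.82, adjusted p in edgeR = 0.857), followed by Rps16 with -0.10 and Rps29 with -0.20. Rps2 (chr17:24718116-24721929) had 575, 654, 676, 399.6, 206 and 554 CPM in KO replicates 1 to 6, against 1211, 36.8, 305 and 62.6 CPM in WT replicates 1 to 4. WT replicate 1 was above, and WT replicates 2 and 4 were below, every KO library. Among library numbers 4 to 8 its log2 fold change was 1.54 and among numbers 1 to 3 it was -0.89, so the sign depends on which libraries enter. For Rpl13 these values were 1.47 and -0.28. Without WT replicate 1 the values were 1.92 for Rps2 and 2.16 for Rpl13, neither past the threshold (adjusted p in edgeR = 0.0869 and 0.104).

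**Figure D3:**
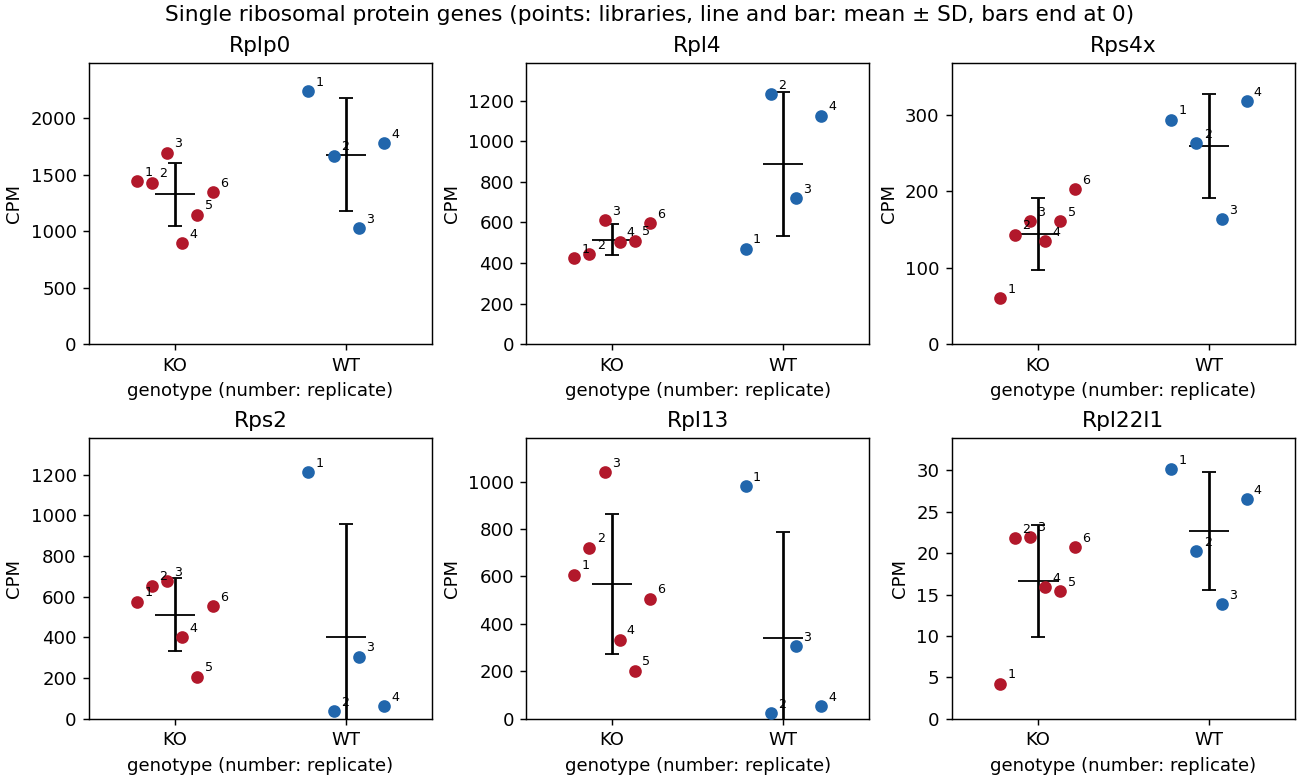
Level in CPM of 6 genes in each library, KO left and WT right; numbers beside the points are replicates, the cross line is the mean and the bar the SD, drawn down to 0 at most. Rpl4 and Rps4x have WT libraries above every KO library, and in Rps2 and Rpl13 WT replicates 2 and 4 lie below every KO library.

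How far members keep a fixed place among themselves was described by the SD, over the 10 libraries, of each gene's log2 level relative to the summed subunit genes. Rpl19, whose protein takes part in a bridge between the subunits, had the smallest SD with 0.08, then Rpl15 with 0.08 and Rps9 with 0.11. The largest were those of Rpl13 with 1.86, Rps2 with 1.64 and Rplp2 with 0.93. Rpl19 made up 1.61% of the subunit counts on average in KO and 1.58% in WT, while Rpl13 made up 3.59% in KO and 1.62% in WT.

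The place of a gene in a library moved with the GC content of its principal transcript. Spearman's rho between GC content and the gene's log2 deviation from its own mean, across the 77 genes, was 0.56, 0.60, 0.31, -0.24, -0.28 and -0.03 in KO replicates 1 to 6, against 0.41, -0.53, -0.37 and -0.50 in WT replicates 1 to 4. Across 11629 tested genes with a GC value, 81.8% of those tested, rho ran from -0.04 to 0.38 in KO and was 0.14, -0.39, -0.24 and -0.37 in WT. Points of a library share its depth, so these are descriptions. In KO replicate 1 the 13 members with less than 48% GC had a median deviation of -1.08 and the 12 members with at least 56% GC one of -0.32. In WT replicate 2 the same groups had medians of 0.32 and -0.19. Across the 77 genes the log2 fold change itself had a rho of 0.44 with GC content, and 0.36 across all tested genes with a value. With the trend of each library on GC content removed, 0 of the 77 were called, against 0.338% of all tested genes higher and 2.94% lower, and 75 were below 0, with a median of -0.55. All 77 had a GC value. Tested genes without one stayed uncorrected and entered these shares. In that fit the highest values of the members were smaller or turned: Rpl13 had 0.30, Rpl10a 0.09, Rps2 -0.06 and Rplp2 -0.07, against 0.74, 0.39, 0.34 and 0.29 with the trend left in. Some members with high GC content that were already below 0 moved further from it. Rps15 had -1.12 and Rpl35 -1.08, against -0.25 and -0.42 with the trend left in.

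**Figure D4:**
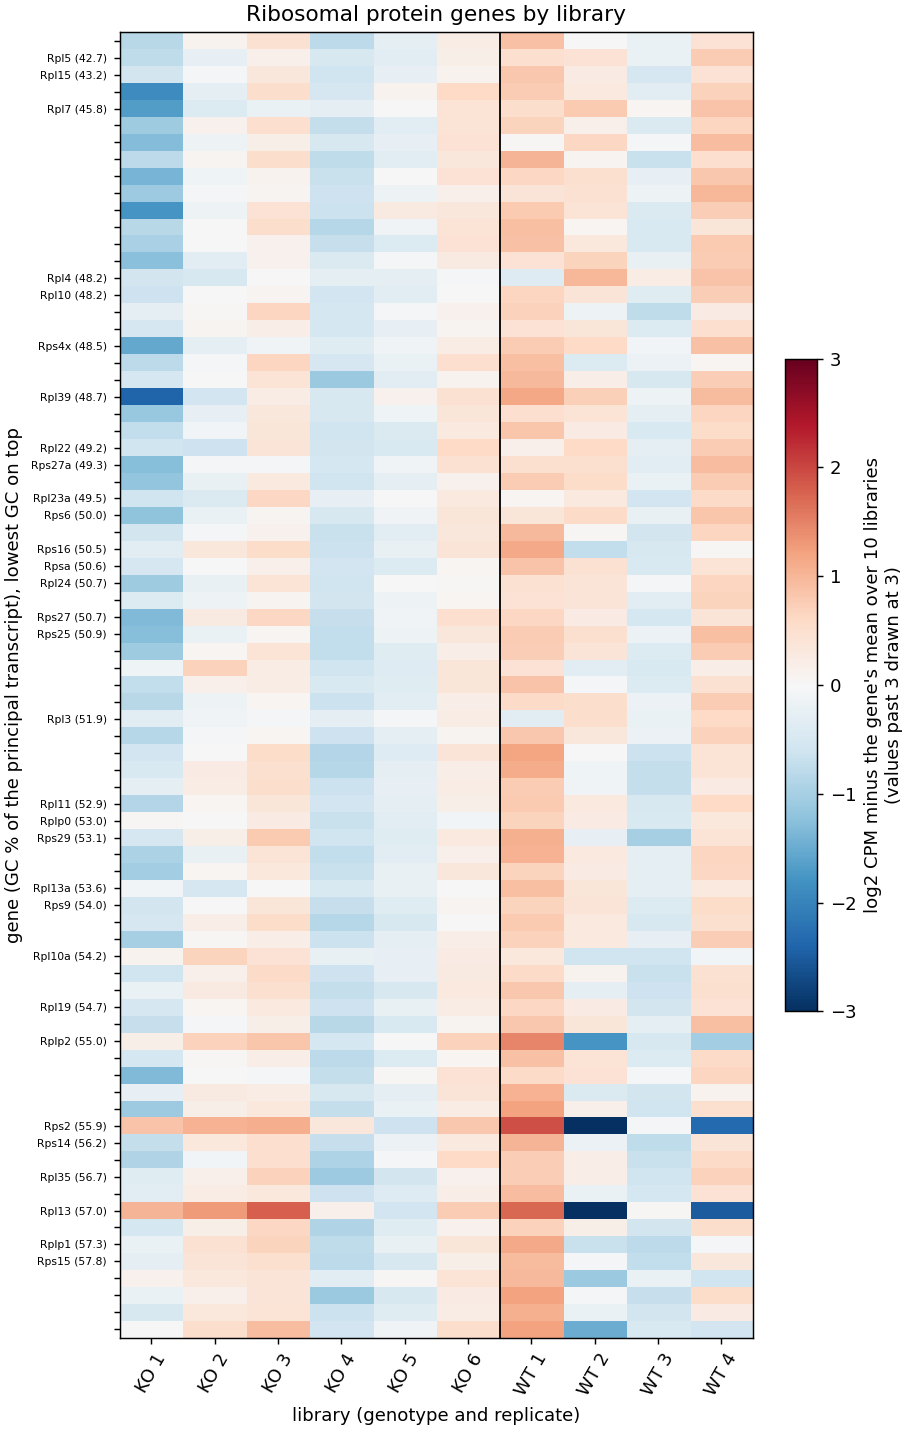
Log2 CPM of the 77 ribosomal protein genes in each library, minus the gene's mean over the 10 libraries, KO left of the line and WT right; rows run from the lowest GC content on top to the highest, with labels for genes named in the text. KO replicate 1 is low in the upper rows, WT replicate 1 is high in nearly all rows, and Rps2 and Rpl13 stand out in WT replicates 2 and 4.

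The paralogs were expressed at low levels with few exceptions. Of the 13, 10 passed the filter on low counts, 0 were called and 10 had a log2 fold change below 0, where passing the filter already selects for expression. Rpl22l1, the paralog of Rpl22, had 4.23, 21.8, 21.98, 15.9, 15.4 and 20.7 CPM in KO replicates 1 to 6, against 30.1, 20.2, 13.8 and 26.5 CPM in WT replicates 1 to 4. KO replicate 1 was the lowest and the other libraries overlapped, for a log2 fold change of -0.44 (SE 0.47, adjusted p in edgeR = 0.666). Rps27l, which p53 induces, had 33.2 to 83.3 CPM in KO and 168, 68.3, 51.4 and 139.9 CPM in WT, a log2 fold change of -0.81 (SE 0.41, adjusted p in edgeR = 0.330), beside -0.22 (SE 0.40) for Rps27.

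Rpl7l1, known for a role in ribosome assembly, was the most abundant paralog at 168 to 336 CPM in KO and 236 to 364 CPM in WT, with a log2 fold change of -0.28 (SE 0.25). Rps4l had the lowest fold change, -1.73 (SE 0.72, adjusted p in edgeR = 0.246), at 0.352 to 2.03 CPM in KO and 1.06 to 7.53 CPM in WT. Rpl36al, Rpl37rt, Rps27rt, Rps3a2, Rps3a3 and Rpl39l ran from -1.08 to -0.33. Copies this alike can lose reads to each other. The paralogs known from testis and muscle were at or near 0: Rpl10l was at 0 in all KO libraries and had 1 count in WT replicate 2, and Rpl3l reached 0.536 CPM in KO and 0.254 CPM in WT. Rps12l1 had 0 counts in every library. Rps19bp1, the member that is not a subunit, had 38.1, 56.6, 43.4, 14.6, 6.62 and 22.7 CPM in KO and 70.7, 1.17, 7.37 and 1.94 CPM in WT, with a log2 fold change of 0.58 (SE 1.06). Without WT replicate 1 it was 3.12 (adjusted p in edgeR = 0.0502), among library numbers 4 to 8 it was 2.08 and among numbers 1 to 3 it was -0.58.

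In the main edgeR fit, with TMM scaling and all libraries, genes that serve the ribosome gave no call either. Scaled to the T cell receptor complex genes, where 14.9% of all tested genes were lower, 16 of 39 translation factors, 14 of 67 biogenesis genes, 1 of 14 RNA polymerase I genes, 2 of 23 MYC and mTOR genes, 1 of 9 S6 kinases and 26 of 77 mitochondrial ribosomal protein genes were lower and 0 higher. Among library numbers 1 to 3, where 2.10% of all tested genes were higher and 0.524% lower, 1 translation factor, 3 biogenesis genes, 2 RNA polymerase I genes, 1 MYC and mTOR gene and 1 mitochondrial ribosomal protein gene were higher and 0 genes of these lists lower. Among numbers 4 to 8, where 0.842% were higher and 7.18% lower, 1 translation factor, 2 biogenesis genes, 1 MYC and mTOR gene and 1 S6 kinase were lower and 0 genes of these lists higher. In the main edgeR fit, of 39 translation factors 0 were called, 28 were below 0 and the median log2 fold change was -0.37. Eif3e, a subunit of the initiation factor that binds the small subunit, was lowest in adjusted p with -1.04 (SE 0.38, adjusted p in edgeR = 0.185). Eef1a1, which brings aminoacyl-tRNA to the ribosome, had 643, 935, 1094, 1240.0, 1303 and 1439 CPM in KO and 1066, 2776, 1647 and 2324 CPM in WT, a log2 fold change of -0.82 (SE 0.31, adjusted p in edgeR = 0.197). WT replicates 2, 3 and 4 lay above every KO library and WT replicate 1 among them, as for Rpl4. Without WT replicate 1 the value was -1.02 and passed (adjusted p in edgeR = 0.042). Rack1, a scaffold on the small subunit listed as Gnb2l1, had a log2 fold change of -0.48 (SE 0.28).

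Of 67 ribosome biogenesis genes 0 were called, 38 were below 0 and the median was -0.17. Rrp9, which binds U3 RNA in the processing of rRNA, had 319, 209.5, 173, 139.7, 161 and 207 CPM in KO, against 112, 37.2, 111 and 49.9 CPM in WT. Every KO library lay above every WT library. Of the 67 genes 3 were higher and 0 lower without overlap, where 2.58% of all tested genes were higher and 6.30% lower. The log2 fold change of Rrp9, 1.38 (SE 0.39), did not pass (adjusted p in edgeR = 0.0988). DESeq2 and limma-voom called Rrp9, where they called 4.31% and 1.44% of all tested genes higher. So did edgeR without WT replicate 1, where 2.92% were higher. Fbl, the methyltransferase fibrillarin, also had no overlap, with 79.4 to 133 CPM in KO and 68.2, 28.3, 74.6 and 40.3 CPM in WT, a log2 fold change of 1.01 (SE 0.33, adjusted p in edgeR = 0.139), and DESeq2 called it (adjusted p = 0.0186). The nucleolar proteins Npm1 and Ncl had log2 fold changes of the other sign, -1.22 (SE 0.60) and -1.51 (SE 0.76). Ncl had 8.20, 14.4, 7.63, 27.1, 27.1 and 36.5 CPM in KO and 2.61, 81.9, 66.1 and 78.7 CPM in WT, so WT replicate 1 was the lowest and the other WT libraries the highest. Ncl had -1.90 and passed without WT replicate 1 (adjusted p in edgeR = 0.041), as it did among library numbers 4 to 8 with -1.26 (adjusted p in edgeR = 0.0361).

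The 14 genes of RNA polymerase I and its factors, which make rRNA, had 0 calls and a median of -0.07, with Taf1c at 1.09 (SE 0.36, adjusted p in edgeR = 0.150). Of 23 tested genes of MYC and mTOR control 0 were called and the median was 0.43. Myc itself had 178, 177, 99.3, 107, 60.4 and 72.9 CPM in KO, against 50.5, 16.5, 86.7 and 29.1 CPM in WT, a log2 fold change of 1.34 (SE 0.51, adjusted p in edgeR = 0.203). Max, the partner of MYC, had -0.85 (SE 0.32), and Larp4, which stabilises mRNAs by their poly(A) tails, -2.51 (SE 0.91), both without a call in this fit. Max had -1.06 and Larp4 -2.90 without WT replicate 1, and both passed (adjusted p in edgeR = 0.0336 and 0.0313). Larp4 was also called by DESeq2 (adjusted p = 0.0365) and among library numbers 4 to 8 (adjusted p in edgeR = 0.0246), and both genes were called when scaled to T cell receptor complex genes. Of 9 tested genes with Rps6k symbols, listed here as S6 kinases by name only, 0 were called and the median was -0.17. Rps6ka4 had 2.35 (SE 0.88), which DESeq2 called (adjusted p = 0.0338), and Rps6kb1, the main kinase of the Rps6 protein, -1.48 (SE 0.62). The 77 genes for mitochondrial ribosomal proteins, named by a separate rule, had 0 calls, 42 below 0 and a median of -0.18, and their summed level was 3882 to 6696 CPM in KO and 10062, 3441, 3742 and 4027 CPM in WT.

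**Figure D5:**
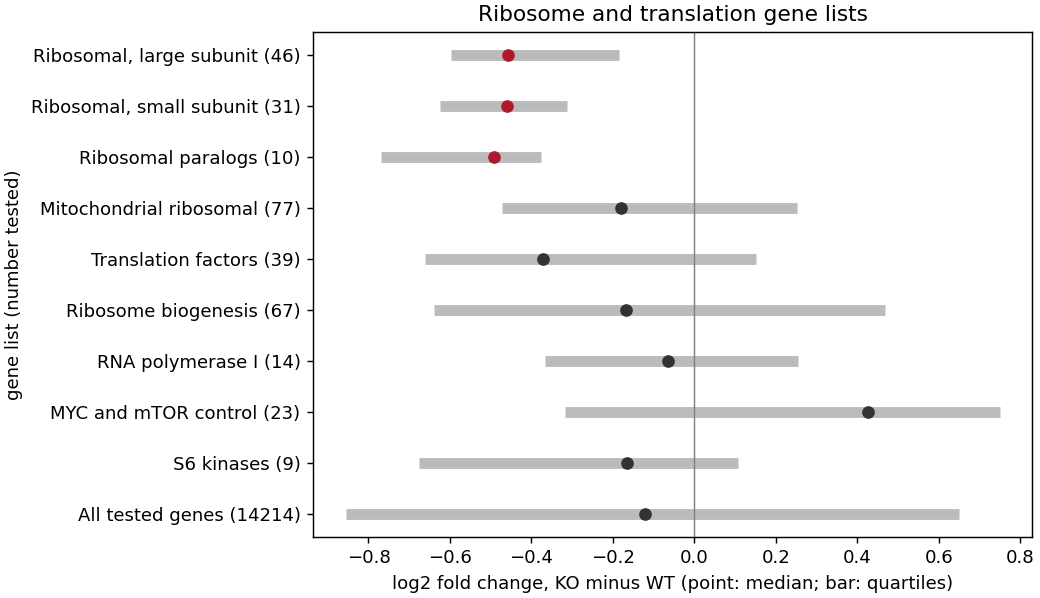
Median (point) and quartiles (bar) of the log2 fold change, KO minus WT, in each gene list, with the number of tested genes in brackets and cytosolic ribosomal protein genes in red. Large and small subunit genes have medians of -0.46 each, against -0.12 over all tested genes.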

How the data were processed

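RNA amplified with the SMART-seq v4 kit was sequenced paired end, per the labels' protocols. The deposited values are counts per gene. The authors used featureCounts 1.6.2 with GENCODE M17 (GRCm38.p6), per the file headers; the same deposited tables list each gene's counted length. The headers show no strand option, and reads that match several places or several genes were not counted, which lowers members with near-identical copies or overlapping genes. The submitters' processing notes also name STAR and FastQC, with no version. KO (n = 6) was compared with WT (n = 4) with edgeR 4.0.16 (quasi-likelihood test; limma 3.58.1, R 4.3.3) after filterByExpr and TMM scaling, with genotype as the only term. P-values were adjusted by Benjamini-Hochberg over all 14214 tested genes, threshold 0.05. Fold changes are KO minus WT on the log2 scale, and CPM uses TMM-scaled totals. GC content is that of the principal transcript in GENCODE M21, or the longest where none is tagged. Promoters came from RefSeq. The fit was tested on simulated data with independent genes and planted changes larger than the main fold change of any subunit gene. That test does not tell how often changes of the members' size would be missed.

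Named genes were the 3 largest and 3 smallest fold changes, the 3 highest levels per length of each subunit, the 3 largest and 3 smallest SDs of relative level, members with known special roles, and in other lists the called genes or the 2 lowest adjusted p-values. Members and lists were chosen with earlier results of these data known. Alternatives were other scalings (DESeq2 1.42.0 size factors, totals, T cell receptor genes, ribosomal protein genes), filters, DESeq2, limma-voom, thinning, length and GC trends, library sets and leaving out each library. Libraries of 1 group differed by more than sampling noise in every pair. Results on some genes that this rule names are not reported here.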

Additional observations from a re-analysis of the deposited data

Results flagged for a closer look

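In 132 checks of single libraries against their own group, 10 lay far from the others by Dixon's criterion, which chance meets in about 1 of 20 groups. Of these, 6 were KO replicate 1: its large over small subunit ratio was 1.54 (other KO libraries 1.23 to 1.31), and Rplp0 took 12.1% of its subunit counts (others 7.25% to 8.62%). Its level was 2.07 CPM for Rpl39, 60.1 CPM for Rps4x, 4.23 CPM for Rpl22l1 and 18.6 CPM for Eif3e, each below all other KO libraries. Total counts of KO replicate 1 were 40987266, within the range of the others, and it had the fewest genes with a count among the KO libraries, 15163. In WT replicate 2, Rplp0 took 9.16% of the subunit counts (other WT libraries 8.18% to 8.33%), and Rpl10l was at 0.0285 CPM, a single count, against 0 in the other WT libraries. In WT replicate 1, Larp4 was at 0.773 CPM (others 19.8 to 31.9 CPM) and Ncl at 2.61 CPM (others 66.1 to 81.9 CPM).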

How the results depend on the processing

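The count of 0 ribosomal protein genes called in either direction was also found in 25 of 27 other settings. For 2 of the 25 this says nothing of stability: scaling to the summed ribosomal protein genes centres the set by construction, and the replicate block called 0 of all tested genes. Scaling to T cell receptor complex genes gave 48 lower and a median of -1.26, and leaving out single libraries gave 0 to 1 lower (Rpl4, without WT replicate 1) and medians of -0.64 to -0.26. The GC alternative was chosen after seeing the data. Among library numbers 1 to 3, with 1 WT library, the share of counts differed by -0.91 points and the large over small ratio by 0.18; these numbers were split because earlier results showed that they differ in genes detected, and the cause was not tested. The labels do not say whether replicate numbers or library numbers pair the libraries. KO replicate 2 and WT replicate 1 share library number 2, and KO replicate 5 and WT replicate 3 share number 6. No pairing by library number was made. Deviations of KO and WT libraries with the same replicate number correlated at 0.41, -0.37, -0.38 and 0.38 over 8107 genes. Those of libraries with different replicate numbers, among replicates 1 to 4, ran from -0.52 (KO replicate 4, WT replicate 1) to 0.46 (KO replicate 3, WT replicate 1). Both kinds hold values of either sign, and the sign followed the split by library number and not the replicate number. With both libraries among numbers 1 to 3 the values were 0.41 to 0.46. With both among the higher numbers they were 0.38 to 0.43. All pairs across the split were negative, from -0.52 to -0.12. On each side of the split the pair with the same replicate number had the lowest value. Since the values follow the split, these correlations cannot decide whether the libraries are paired. With the replicate block 0 ribosomal protein genes were called, with a median of -0.55 and a large minus small difference of 0.06, and 0 of all tested genes were called; Tox then had -3.26 (edgeR adjusted p = 0.122). Scaled to ribosomal protein genes Tox had -2.45 (edgeR adjusted p = 0.085). Of 1487 comparisons of named genes uncalled in both fits, 69 changed sign. The SE of single subunit genes' log2 fold changes ran from 0.24 to 0.88.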
